A study of Mus musculus with 12 samples.

Results

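The CHD family of chromatin remodelers was read from a bulk RNA sequencing series of paused mouse embryonic stem cells, by taking the rows of the raw count table named Chd1 to Chd9. All 9 members were found among the 24421 genes of the table, and all 9 were among the 14497 genes with enough reads to be tested. The 12 libraries form 3 groups of 4, Mycn-gRNA2, Mycn-gRNA3 and the non-targeting guide NT. All 3 groups are E14 cells, an established mouse embryonic stem cell line, of the genotype WT(dCas_Alkbh5). The cells carry a fusion of a catalytically dead Cas protein with Alkbh5, an RNA demethylase that acts on m6A, and the labels do not name the promoter that drives it or say whether the line is 1 clone. All were kept on gelatin with serum and LIF, received 1 µg of a guide RNA plasmid with 8 µg/mL blasticidin over 3 days, and then spent 5 days in INK128 at 200 nM, an mTOR inhibitor that slows their growth. The groups differ by label in the guide alone, and 2 of the guides are named for Mycn, which encodes a growth-promoting relative of MYC. The labels number the libraries 1 to 4 in each group and do not say whether they are separate cultures, so a p-value here reflects only how far these samples spread, and that spread may be technical.

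CHD proteins use the energy of ATP to slide, space or evict nucleosomes, and each carries a pair of chromodomains beside its helicase-like motor. The family falls into 3 subfamilies, Chd1 and Chd2, Chd3 to Chd5, and Chd6 to Chd9. Chd1 works behind elongating RNA polymerase II and is known to support the open chromatin and the high transcription of mouse embryonic stem cells. Chd3, Chd4 and Chd5 are the alternative motors of the NuRD complex, which joins remodeling to histone deacetylation. Chd7 and Chd8 act at enhancers and promoters in development, and Chd6 and Chd9 are less well described.

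Libraries held 17248564 to 33819855 endogenous reads, of which each member except Chd5 received at least 1775 in every library and Chd5 246 to 456. Each member is given on 2 scales. CPM, reads per 1000000 after TMM scaling, is its level relative to the transcriptome, and reads per 1000 reads of the added ERCC RNAs is its level per ERCC read. The ERCC RNAs went into RNA from 200000 cells per sample, so the second level follows RNA per cell only where the cells and the RNA recovered did not differ between samples, which was not tested. Endogenous reads per ERCC read were 81.9 ± 12.4 with Mycn-gRNA2, 90.2 ± 5.13 with Mycn-gRNA3 and 65.5 ± 4.66 in NT (SD, n = 4 each). Replicate 2 of Mycn-gRNA2 had 65.6, within the NT range of 61.3 to 72.1, where the other guide libraries had 81.6 to 95.6. Mycn stood at 236 ± 26.7 CPM with Mycn-gRNA2, 276 ± 16.7 CPM with Mycn-gRNA3 and 141 ± 4.17 CPM in NT (SD, n = 4 each), and so was higher with the guides. All 7 markers of pluripotent cells were expressed, at a summed 3633 to 4127 CPM with Mycn-gRNA2, 3655 to 4292 CPM with Mycn-gRNA3 and 4574 to 4950 CPM in NT. In bulk samples, fewer cells of a type and less RNA per cell cannot be told apart. The 4 Y-linked genes examined summed, in CPM, to 32.4 to 83.7 with Mycn-gRNA2 and 46.1 to 63.5 with Mycn-gRNA3, against 0.0448 to 0.181 CPM in NT, so a difference between the cultures and an effect of the guides cannot be told apart in any comparison with NT below. Replicate 1 of Mycn-gRNA2 stood apart from the other libraries of its group, with a chi-square per degree of freedom of 44.6 to 72.2 against them, where all other replicate pairs gave 8.63 to 29.8.

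Chd4 was by far the most abundant member in all 12 libraries, and Chd5 was the least abundant in all 12. Levels between genes were compared as RPKM, CPM per kilobase of exon. Chd4 had 142 ± 10.3 RPKM with Mycn-gRNA2, 140 ± 8.15 RPKM with Mycn-gRNA3 and 149 ± 4.75 RPKM in NT (SD, n = 4 each). It held 47.5% ± 3.09 of the family's summed RPKM with Mycn-gRNA2, 48.9% ± 1.37 with Mycn-gRNA3 and 49.0% ± 0.692 in NT (SD, n = 4 each). In NT, 97.9% of tested genes had a lower RPKM than Chd4, and the median tested gene had 6.80 RPKM. Chd8 followed with 32.7 ± 1.24 RPKM in NT, Chd1 with 27.7 ± 1.56 RPKM and Chd2 with 22.7 ± 1.33 RPKM (SD, n = 4 each). The ranges of these members did not overlap in NT. Below them stood Chd9 at 19.8 RPKM, Chd3 at 17.5 RPKM, Chd7 at 17.2 RPKM and Chd6 at 16.1 RPKM in NT, and the range of Chd3, 15.4 to 20.3 RPKM, overlapped those of the other 3. Chd5, known mainly from brain and testis, was the lowest member, at 1.42 ± 0.0935 RPKM with Mycn-gRNA2, 1.44 ± 0.224 RPKM with Mycn-gRNA3 and 1.40 ± 0.193 RPKM in NT (SD, n = 4 each), and 24.8% of tested genes lay below it in NT. The order was different with the guides, where Chd9 and Chd7 stood above Chd2 by their means. Chd9 had 21.0 RPKM, Chd7 20.6 RPKM and Chd2 19.6 RPKM with Mycn-gRNA2. Chd7 had 19.4 RPKM, Chd9 18.5 RPKM and Chd2 18.4 RPKM with Mycn-gRNA3. The ranges of these 3 members overlapped within each guide.

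The promoters of the most and the least abundant NuRD motor are shown because Chd4 and Chd5 lie far apart in level. This pair was chosen after its levels were seen. The runs are the 250 bases before the annotated start, on the plus strand of GRCm38.p6, credited to RefSeq, and capitals mark the CpG dinucleotides. Chd4 lies on chromosome 6, chr6:125095913-125096162 for this stretch, and Chd5 on chromosome 4, chr4:152338401-152338650.
Chd4: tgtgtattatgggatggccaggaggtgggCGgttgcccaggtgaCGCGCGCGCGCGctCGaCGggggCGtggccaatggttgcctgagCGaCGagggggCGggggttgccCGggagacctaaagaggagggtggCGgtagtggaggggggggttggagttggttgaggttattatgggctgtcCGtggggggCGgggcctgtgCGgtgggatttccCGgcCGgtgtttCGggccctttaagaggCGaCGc
Chd5: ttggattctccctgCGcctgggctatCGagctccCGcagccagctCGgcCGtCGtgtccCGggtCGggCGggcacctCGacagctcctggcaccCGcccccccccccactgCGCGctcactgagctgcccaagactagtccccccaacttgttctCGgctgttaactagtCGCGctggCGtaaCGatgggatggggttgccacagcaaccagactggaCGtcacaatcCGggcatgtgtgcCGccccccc
Chd4 held 23 CpG in this stretch and Chd5 21, with a GC content of 67.6% and 67.2%. In windows of 300 bases around each RefSeq start, this start of Chd4 held 29 CpG and its other start 17, and the starts of Chd5 held 32 and 33. The E-box CACGTG (the letters bound by MYC proteins with their partner MAX), the CCAAT box and the GC box GGGCGG were searched on both strands in windows of 300 bases, 250 before and 50 after the start. RefSeq windows were matched for 5 of the 9 members, Chd4, Chd5, Chd6, Chd8 and Chd9, with 8 windows in all. The window of Chd8 lies upstream of the counted gene model and 1 of the 2 of Chd9 lies inside it, so these are other annotated starts. None of the 8 held CACGTG, which 7.15% of 32851 promoters of the same length held. CCAAT stood in the windows of Chd4, Chd6 and Chd8 and in 37.4% of all promoters. GGGCGG stood in 7 of the 8 windows, all but 1 of the 2 of Chd9, and in 35.7% of all promoters. Those 7 windows held 17 to 33 CpG and the other held 1, where the median of all promoters was 7. The shares are thus not matched for CpG. The 2 windows of Chd5 overlap, as do the 2 of Chd4, so they are not separate cases. A match or its absence describes only the letters of these windows.

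Relative to the transcriptome, 1 member rose and 2 fell with the Mycn guides against NT. Chd7 rose by 0.22 on the log2 scale, Chd2 fell by 0.25 and Chd3 fell by 0.30. The other 6 members, Chd1 among them, did not pass the test, at an adjusted p under 0.05 from the edgeR quasi-likelihood test over all 14497 genes. These 3 of 9 members compare with 27.8% of all tested genes called in either direction, 14.9% higher and 13.0% lower, so the share of members called was near the background. The median log2 fold change was −0.04 over the members and −0.003 over all tested genes. Without replicate 1 of Mycn-gRNA2, the library that stood apart, 3 members were again called, beside 6157 genes called, where all 12 libraries gave 4034. Replicates 1 and 2 alone gave 0 members, beside 178 genes called, and replicates 3 and 4 alone gave 4 members, beside 6385 genes.

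**Figure D1:**
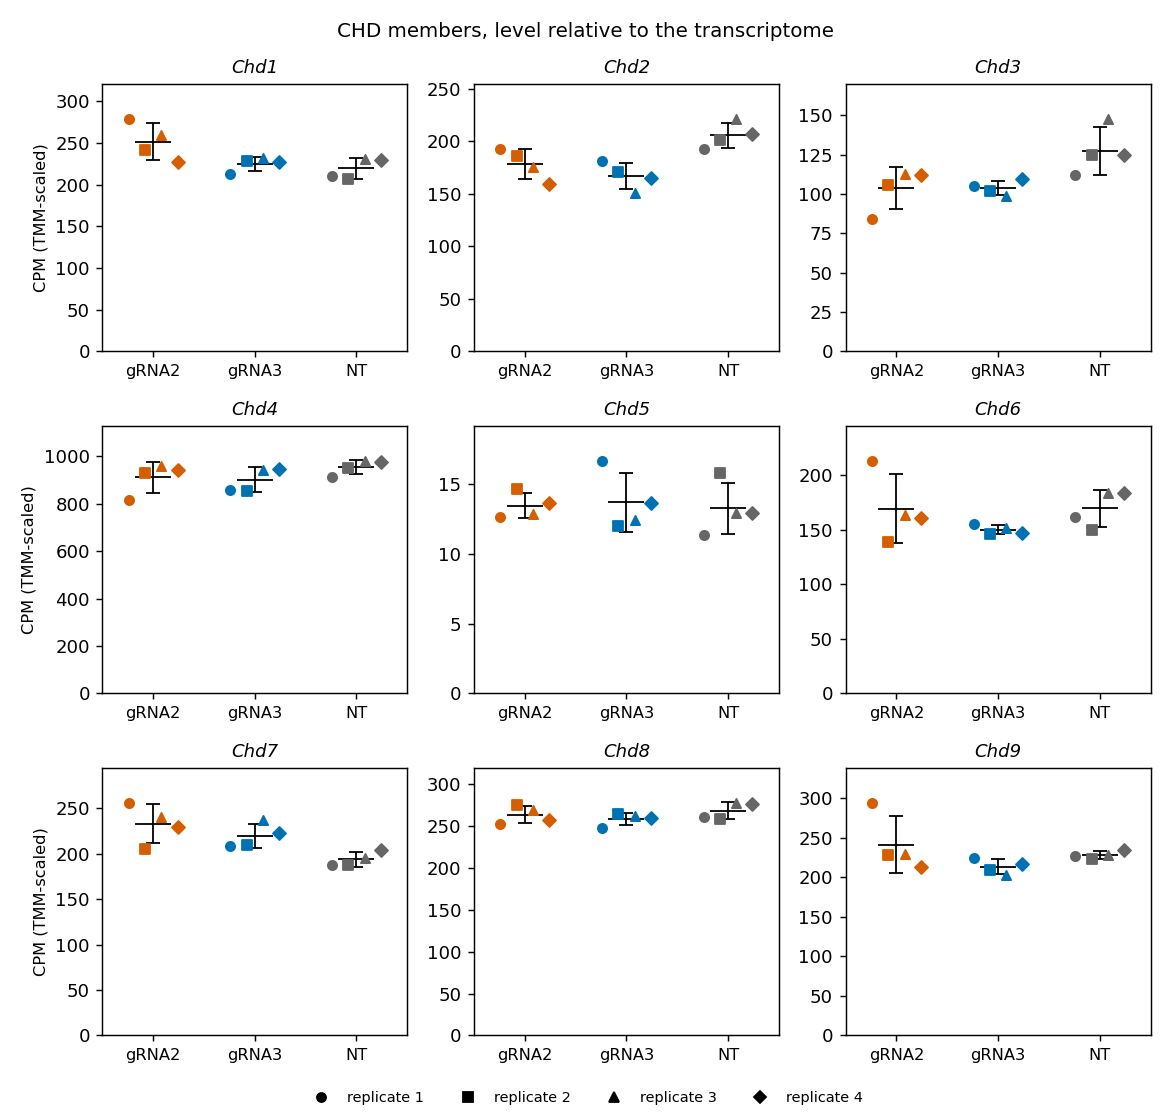
Level of each CHD member in CPM (TMM-scaled, vertical axis from 0) in the 4 libraries of each group, with marker shape for the replicate number and bars for mean and SD. All 8 guide libraries lie below the 4 NT libraries for Chd2 and above them for Chd7, while Chd9 and Chd6 are highest in replicate 1 of Mycn-gRNA2.

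Chd1 lies on chromosome 17 of mm10, 15704967 to 15772612 on the plus strand, in 36 exon blocks of 7918 bases. In replicates 1 to 4 it had 279, 242, 259 and 227 CPM with Mycn-gRNA2. The Mycn-gRNA3 libraries had 213, 229, 232 and 227 CPM, and the NT libraries 211, 207, 231 and 229 CPM. With Mycn-gRNA2 3 of 4 libraries were above every NT library, with Mycn-gRNA3 1 of 4, and the groups overlapped. The log2 fold change was 0.12 with both guides (95% interval −0.01 to 0.25, edgeR adjusted p = 0.172), 0.20 with Mycn-gRNA2 (adjusted p = 0.0676) and 0.04 with Mycn-gRNA3 (adjusted p = 0.729). Without replicate 4 of Mycn-gRNA2 the difference of that guide from NT was 0.25 (edgeR adjusted p = 0.032), and DESeq2 called it at 0.20 (adjusted p = 0.0406). The other 17 of 19 alternatives left it uncalled, and with 1 library left out the edgeR adjusted p reached 0.173. With both guides the change was 0.21 in replicates 1 and 2 alone (edgeR adjusted p = 0.398) and 0.04 in replicates 3 and 4 alone (adjusted p = 0.667).

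Chd2, the close relative of Chd1, lies on chromosome 7 of mm10, 73426652 to 73541746 on the minus strand, in 39 exon blocks of 9071 bases. In replicates 1 to 4 it had 192, 186, 175 and 159 CPM with Mycn-gRNA2. The Mycn-gRNA3 libraries had 181, 171, 151 and 165 CPM, and the NT libraries 193, 201, 222 and 207 CPM. All 8 guide libraries were below every NT library, a separation that 6.87% of tested genes showed in this direction. The closest pair was replicate 1 of Mycn-gRNA2, at 192.4 CPM, and replicate 1 of NT, at 192.7 CPM. Chd2 fell by 0.25 with both guides (SE 0.0646, edgeR adjusted p = 0.00985) and by 0.30 with Mycn-gRNA3 (SE 0.0753, adjusted p = 0.00997). With Mycn-gRNA2 its log2 fold change was −0.21, which did not pass (SE 0.0754, adjusted p = 0.0739). With any 1 library left out, the call with both guides held at edgeR adjusted p-values of 0.00155 to 0.0481. The fold change with both guides was −0.11 in replicates 1 and 2 alone (edgeR adjusted p = 0.651) and −0.40 in replicates 3 and 4 alone (adjusted p = 4.25e-05).

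The count table's Chd2 and its neighbour 1810026B05Rik, known as Chaserr, share 634 exonic bases on the same strand, 6.99% of the exonic length of Chd2. Chaserr is a long non-coding RNA that lowers Chd2 in cis in mouse, and it was looked at after the values of Chd2 were seen. In replicates 1 to 4 it had 43.9, 29.2, 20.7 and 24.1 CPM with Mycn-gRNA2. The Mycn-gRNA3 libraries had 31.1, 22.3, 19.4 and 25.9 CPM, and the NT libraries 32.1, 34.4, 30.3 and 34.0 CPM. Replicate 1 of Mycn-gRNA2 was above every NT library, replicate 1 of Mycn-gRNA3 was within the NT range, and the other 6 guide libraries were below every NT library. Its log2 fold change with both guides was −0.28 (SE 0.167, edgeR adjusted p = 0.232).

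**Figure D2:**
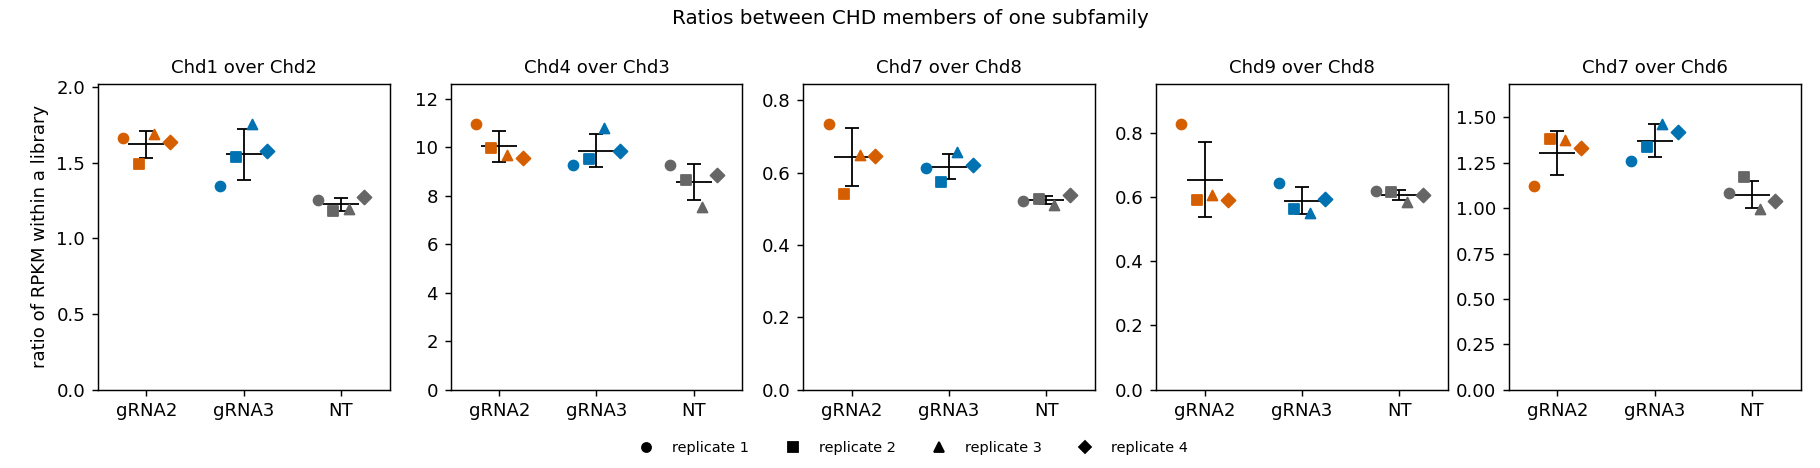
Ratio of RPKM within each library (vertical axes from 0) for 5 pairs of members of one subfamily, with marker shape for the replicate number and bars for mean and SD. Guide and NT libraries do not overlap for Chd1 over Chd2 and for Chd7 over Chd8, and they overlap for the other 3 pairs. The share of other gene pairs without overlap was not computed.

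A ratio of members within a library does not depend on how the library is scaled, and is given here with no test. The pairs are only some of those within the subfamilies, and the share of other gene pairs that separate guide from NT libraries was not computed. Chd2 and Chd7 each separated guide from NT libraries in CPM already, without a ratio. Chd1 over Chd2 was 1.62 ± 0.0894 with Mycn-gRNA2, 1.56 ± 0.169 with Mycn-gRNA3 and 1.22 ± 0.0447 in NT (SD, n = 4 each). Its lowest guide library, at 1.35, was above its highest NT library, at 1.27. Chd7 over Chd8 was 0.643 ± 0.0795 with Mycn-gRNA2, 0.617 ± 0.0342 with Mycn-gRNA3 and 0.524 ± 0.0108 in NT (SD, n = 4 each), and its groups did not overlap either, by 0.541 in the lowest guide library against 0.537 in the highest NT library. The other 3 ratios overlapped between guide and NT libraries. Chd4 over Chd3 was 10.0 ± 0.653 with Mycn-gRNA2, 9.86 ± 0.683 with Mycn-gRNA3 and 8.58 ± 0.742 in NT (SD, n = 4 each). Chd7 over Chd6 was 1.30 ± 0.122 with Mycn-gRNA2, 1.37 ± 0.0911 with Mycn-gRNA3 and 1.07 ± 0.075 in NT (SD, n = 4 each). Chd9 over Chd8 was 0.654 ± 0.117 with Mycn-gRNA2, 0.588 ± 0.0419 with Mycn-gRNA3 and 0.606 ± 0.0149 in NT (SD, n = 4 each), with the guides on both sides of NT.

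Of the NuRD motors, Chd3 fell and Chd4 and Chd5 did not pass. Chd3 lies on chromosome 11 of mm10, 69343273 to 69369426 on the minus strand, with 7281 exonic bases. In replicates 1 to 4 it had 84.0, 106, 112 and 112 CPM with Mycn-gRNA2. The Mycn-gRNA3 libraries had 105, 102, 98.9 and 109 CPM, and the NT libraries 112, 125, 148 and 125 CPM. Below every NT library were 6 of 8 guide libraries, and the exceptions were replicates 3 and 4 of Mycn-gRNA2. Chd3 fell by 0.30 with both guides (SE 0.0843, edgeR adjusted p = 0.0179) and by 0.30 with Mycn-gRNA3 (SE 0.0983, adjusted p = 0.0384). With Mycn-gRNA2 the log2 fold change was also −0.30 (SE 0.0985, adjusted p = 0.0526). The call with both guides was lost without replicate 3 of NT, the library with the most Chd3, where the change was −0.22 (edgeR adjusted p = 0.0904).

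Chd4, on chromosome 6 of mm10 from 125096163 to 125130501, had 815 to 960 CPM with Mycn-gRNA2, 854 to 948 CPM with Mycn-gRNA3 and 914 to 982 CPM in NT. The groups overlapped, and its log2 fold change with both guides was −0.08 (95% interval −0.20 to 0.05, edgeR adjusted p = 0.345). Chd5, on chromosome 4 from 152338651 to 152390194, had 12.7 to 14.7 CPM with Mycn-gRNA2, 12.0 to 16.7 CPM with Mycn-gRNA3 and 11.4 to 15.8 CPM in NT, and a log2 fold change of 0.03 (95% interval −0.19 to 0.26, adjusted p = 0.851). Chd5 had the widest interval of the family beside the fewest reads, 246 to 456 per library.

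Of the 12 other NuRD subunits tested, 3 rose, 1 fell and 8 did not pass relative to the transcriptome, a share near the 27.8% of all tested genes called, and their median log2 fold change was −0.03. Mbd3, the subunit that distinguishes one form of the complex, rose by 0.51 (SE 0.115, edgeR adjusted p = 0.00483), Mta3, a scaffold subunit, by 0.39 (SE 0.106, adjusted p = 0.0139), and Cdk2ap1, a small accessory subunit, by 0.37 (SE 0.0817, adjusted p = 0.00444). Hdac2, a catalytic deacetylase, fell by 0.28 (SE 0.0618, edgeR adjusted p = 0.0047). Chd4 also works in the ChAHP complex with Adnp and an HP1 protein. Of 4 such partners 2 rose, beside 14.9% of all tested genes called higher, Cbx3, the HP1 gamma gene, by 0.73 (SE 0.117, edgeR adjusted p = 0.0005) and Adnp2, a relative of Adnp, by 0.20 (SE 0.0659, adjusted p = 0.04).

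Of the Chd6 to Chd9 subfamily, Chd7 rose and the others did not pass. Chd7, which in humans is the gene mutated in CHARGE syndrome, lies on chromosome 4 of mm10, 8690406 to 8868449 on the plus strand, with 11306 exonic bases. In replicates 1 to 4 it had 257, 205, 241 and 229 CPM with Mycn-gRNA2. The Mycn-gRNA3 libraries had 209, 209, 238 and 223 CPM, and the NT libraries 188, 188, 196 and 204 CPM. All 8 guide libraries were above every NT library, a separation that 8.55% of tested genes showed in this direction. The lowest guide library, replicate 2 of Mycn-gRNA2, had 205.3 CPM, and the highest NT library had 204.2 CPM. Chd7 rose by 0.22 with both guides (edgeR adjusted p = 0.0179, SE 0.0634) and by 0.27 with Mycn-gRNA2 (adjusted p = 0.0227, SE 0.0727). With Mycn-gRNA3 its log2 fold change was 0.18 (SE 0.0726, adjusted p = 0.0788). The call with both guides was lost without replicate 1 of NT (edgeR adjusted p = 0.0601) or replicate 2 of NT (adjusted p = 0.0593), with changes of 0.21 in each case.

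Chd6, Chd8 and Chd9 did not pass in any comparison on this scale. Chd6, on chromosome 2 of mm10 from 160946978 to 161109086, had 139 to 213 CPM with Mycn-gRNA2, 146 to 155 CPM with Mycn-gRNA3 and 150 to 184 CPM in NT, and a log2 fold change of −0.09 with both guides (95% interval −0.29 to 0.11, edgeR adjusted p = 0.503). In replicates 3 and 4 alone Chd6 was called lower, at −0.24 (edgeR adjusted p = 0.00234), where replicates 1 and 2 alone gave 0.07 (adjusted p = 0.901). Chd8, on chromosome 14 from 52198151 to 52237572, is the member whose loss in humans is tied to autism, and it had 253 to 275 CPM with Mycn-gRNA2, 247 to 264 CPM with Mycn-gRNA3 and 258 to 278 CPM in NT. Its log2 fold change was −0.04 (95% interval −0.14 to 0.06, edgeR adjusted p = 0.569), the narrowest interval of the family.

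Chd9 lies on chromosome 8 of mm10, 90828835 to 91054508 on the plus strand. In replicates 1 to 4 it had 295, 228, 230 and 214 CPM with Mycn-gRNA2. The Mycn-gRNA3 libraries had 224, 209, 203 and 217 CPM, and the NT libraries 226, 223, 228 and 235 CPM. Replicate 1 of Mycn-gRNA2 was the highest library for Chd9, as it was for Chd1, Chd6 and Chd7 on this scale. The log2 fold change with both guides was −0.008 (95% interval −0.17 to 0.15, edgeR adjusted p = 0.951), and −0.06 without that library (adjusted p = 0.248). Among tested genes at a mean log2 CPM above 3, those of chromosome 8 had a median log2 fold change of −0.12, and those of chromosome 1 one of −0.13, against −0.07 to 0.03 for the other autosomes and the X chromosome. The part of this shift in the value of Chd9 was not tested.

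**Figure D3:**
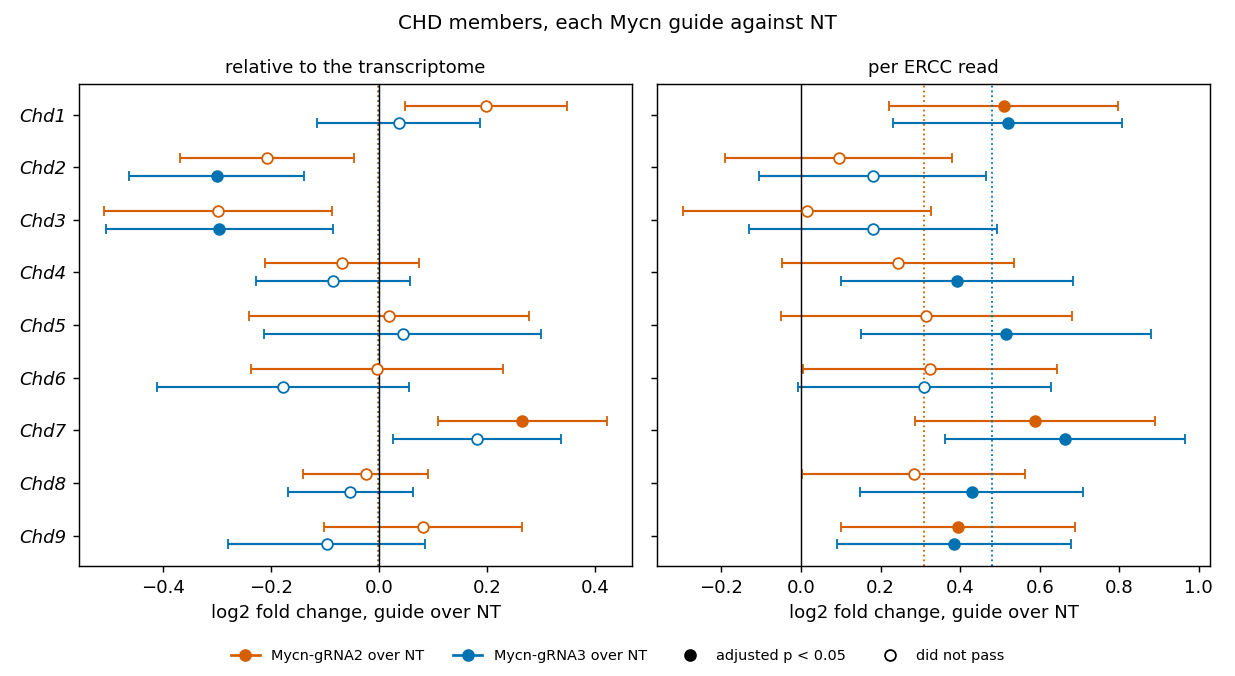
Fitted log2 fold change of each CHD member, Mycn-gRNA2 over NT (orange, upper of each pair) and Mycn-gRNA3 over NT (blue, lower), with 95% intervals, relative to the transcriptome (left) and per ERCC read (right). Filled points passed at an adjusted p under 0.05, dotted lines mark the median over all tested genes, and on the right every point lies above 0, with Chd2 and Chd3 to the left of both medians.

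For each guide taken alone, fewer members passed relative to the transcriptome. With Mycn-gRNA2 against NT 1 of 9 was called, Chd7, beside 17.1% of all tested genes called, 10.1% higher and 7.06% lower. With Mycn-gRNA3 against NT 2 of 9 were called, Chd2 and Chd3, beside 27.0% of all tested genes called, 14.8% higher and 12.2% lower. Both comparisons use the same 4 NT libraries. The Chd7 call with Mycn-gRNA2 was lost without NT replicate 1, 2 or 3 or Mycn-gRNA2 replicate 3, at edgeR adjusted p-values of 0.0521 to 0.0684. The Chd3 call with Mycn-gRNA3 was lost without NT replicate 2, 3 or 4 or any 1 Mycn-gRNA3 library, at 0.0561 to 0.131. A call with one guide and not the other does not show that the guides differ, and that difference was tested directly. Mycn-gRNA3 against Mycn-gRNA2 gave 0 of 9 members relative to the transcriptome, beside 0% of all tested genes by edgeR, and DESeq2 gave 0 members and 1 gene. These fits do not pair same-numbered libraries. With a term for the replicate number edgeR also called 0 members and 0 genes. At an unadjusted p under 0.05, 1 of 9 members and 1273 genes, 8.78% of those tested, differed by edgeR. That member was Chd1, at −0.16 (95% interval −0.31 to −0.01, edgeR unadjusted p = 0.0372, adjusted p = 0.549). The intervals of this difference included 0 for the other 8 members, and were widest for Chd5, from −0.23 to 0.28, and narrowest for Chd8, from −0.14 to 0.09.

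Per ERCC read, 7 of 9 members rose with both guides against NT and none fell, beside 57.3% of all tested genes called, 56.4% higher and 0.931% lower. Chd7 rose by 0.63, Chd1 by 0.51, Chd5 by 0.42, Chd9 by 0.39, Chd8 by 0.36, Chd4 by 0.32 and Chd6 by 0.32 on the log2 scale, with edgeR adjusted p-values between 0.000267 for Chd7 and 0.0475 for Chd6. Chd2 had 0.14 (edgeR adjusted p = 0.328) and Chd3 0.10 (adjusted p = 0.531), and neither passed. The median log2 fold change was 0.36 over the members and 0.39 over all tested genes. Chd7, Chd1 and Chd5 lay above the median of all genes, and Chd9, Chd8, Chd4, Chd6, Chd2 and Chd3 below it, with no test of these distances.

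**Figure D4:**
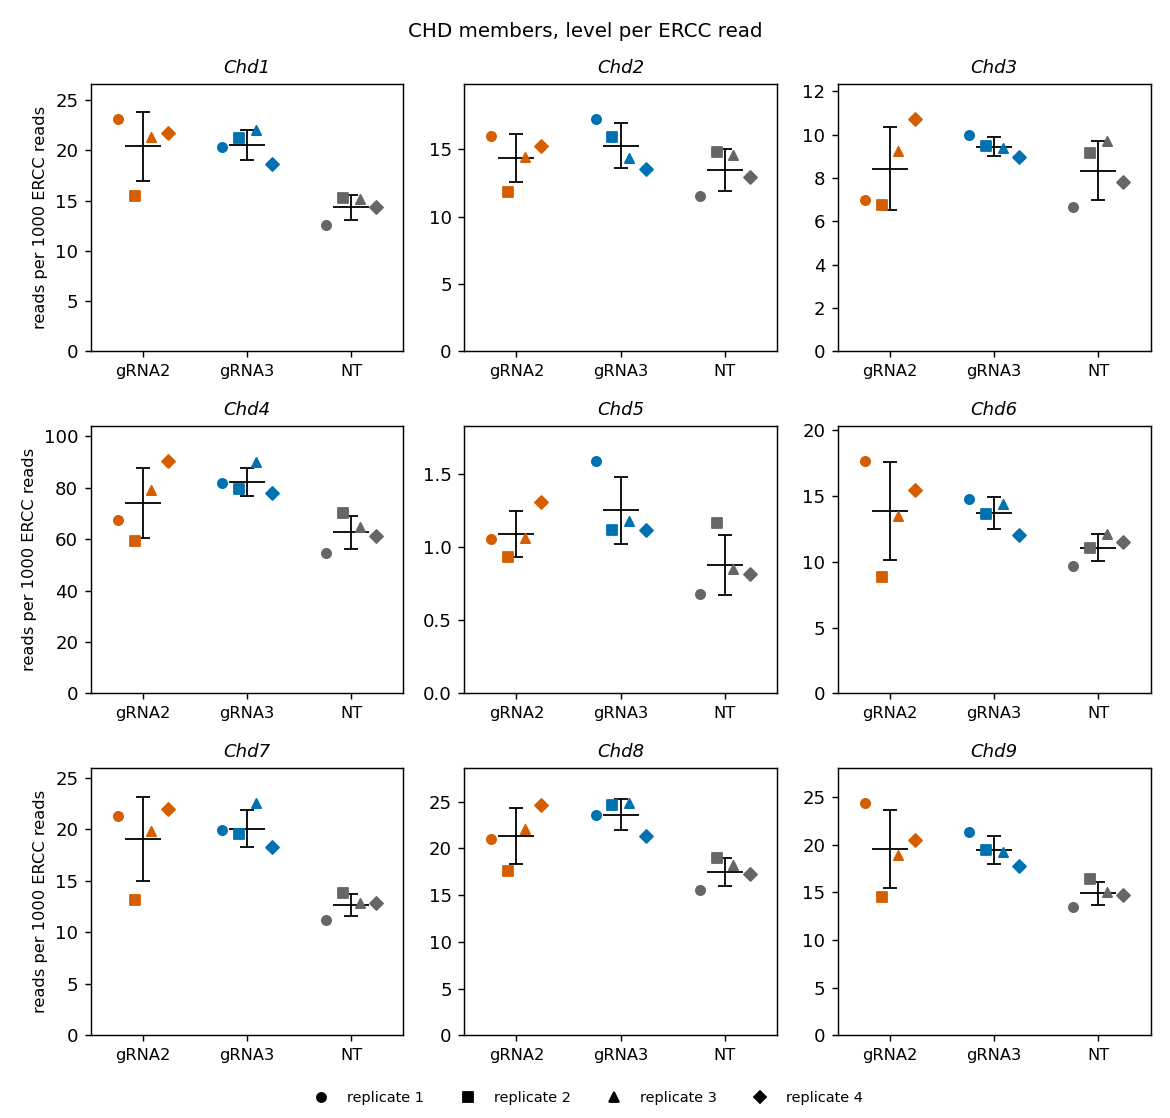
Level of each CHD member in reads per 1000 ERCC reads (vertical axis from 0) in the 4 libraries of each group, with marker shape for the replicate number and bars for mean and SD. Chd1 is higher in all 8 guide libraries than in any NT library, and replicate 2 of Mycn-gRNA2 is the lowest guide library for all 9 members. That library also had the fewest endogenous reads per ERCC read of the 8 guide libraries.

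Chd1 had 23.2, 15.4, 21.3 and 21.8 reads per 1000 ERCC reads with Mycn-gRNA2, 20.3, 21.3, 22.0 and 18.6 with Mycn-gRNA3, and 12.6, 15.3, 15.2 and 14.4 in NT, in replicates 1 to 4. All 8 guide libraries were above every NT library, as was so for 11.5% of tested genes, where 0.235% had all 8 below, and replicate 2 of Mycn-gRNA2 was close to the highest NT library. Chd1 rose by 0.51 with both guides (edgeR adjusted p = 0.00121, SE 0.125). The rise was 0.51 with Mycn-gRNA2 (edgeR adjusted p = 0.00837) and 0.52 with Mycn-gRNA3 (adjusted p = 0.00267), each with an SE of 0.142. Chd7 had 21.3, 13.1, 19.8 and 22.0 reads per 1000 ERCC reads with Mycn-gRNA2, 19.9, 19.5, 22.6 and 18.3 with Mycn-gRNA3, and 11.2, 13.8, 12.9 and 12.8 in NT, in replicates 1 to 4. Replicate 2 of Mycn-gRNA2 fell within the NT range and the other 7 guide libraries were above it. Chd7 rose by 0.59 with Mycn-gRNA2 (SE 0.149, edgeR adjusted p = 0.0039) and by 0.66 with Mycn-gRNA3 (SE 0.149, adjusted p = 0.000456).

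Chd2 had 14.4 ± 1.79 reads per 1000 ERCC reads with Mycn-gRNA2, 15.3 ± 1.67 with Mycn-gRNA3 and 13.5 ± 1.54 in NT (SD, n = 4 each), and 4 of 8 guide libraries were above every NT library. Chd3 had 8.43 ± 1.91 with Mycn-gRNA2, 9.45 ± 0.425 with Mycn-gRNA3 and 8.34 ± 1.37 in NT on the same scale (SD, n = 4 each), and 2 of 8 were above. Chd2 and Chd3 thus fell relative to the transcriptome while their reads per ERCC read differed from NT by less than the test could call, with 95% intervals of −0.11 to 0.39 for Chd2 and −0.17 to 0.37 for Chd3. With Mycn-gRNA2 against NT 3 of 9 members rose per ERCC read, Chd1, Chd7 and Chd9, beside 26.8% of all tested genes called, 26.3% higher and 0.517% lower. The rise of Chd9 with Mycn-gRNA2 was lost with any 1 library left out except NT replicate 2, Mycn-gRNA2 replicate 2 or Mycn-gRNA3 replicate 4, at edgeR adjusted p-values of 0.0514 to 0.156. With Mycn-gRNA3 against NT 6 of 9 rose, all but Chd2, Chd3 and Chd6, beside 61.2% of all tested genes called, 60.7% higher and 0.504% lower. Mycn-gRNA3 against Mycn-gRNA2 gave 0 of 9 members by edgeR and by DESeq2, beside 0.00690% of all tested genes, and 0 of 9 at an unadjusted p under 0.05, where 1601 genes passed. Of the 7 rises with both guides, 2 were called without replicate 1 of NT, 4 without its replicate 3 or 4, and leaving out any other single library gave 5 to 7. Genes called in all were 5599, 6706 and 5914 without replicates 1, 3 and 4 of NT in turn, and 8312 with all 12 libraries. Without replicate 1 of NT, Chd1 and Chd7 were the members still called, and their rises were called with each of the 12 libraries left out. Of the other rises, Chd6 was the least stable, and it was called without Mycn-gRNA2 replicate 2 or Mycn-gRNA3 replicate 4 but lost with any other library left out, at edgeR adjusted p-values of 0.0557 to 0.174.

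Genes of the other remodelers and of the elongation machinery were counted relative to the transcriptome with both guides, beside 27.8% of all tested genes called, 14.9% higher and 13.0% lower. Of 22 SWI/SNF subunits 2 rose and 1 fell, Smarca4 by 0.18 (SE 0.0541, edgeR adjusted p = 0.0262) and Smarca2 by 0.63 (SE 0.173, adjusted p = 0.0152), the motors of the complex, against Brd7, a bromodomain subunit, at −0.16 (SE 0.05, adjusted p = 0.0252). Of 11 ISWI motors and partners 1 rose and 2 fell, and the motor Smarca1 fell most, by 0.68 (SE 0.075, edgeR adjusted p = 3.29e-05). None of 25 INO80, SRCAP and TIP60 subunits passed by edgeR or by DESeq2, 2 had an unadjusted edgeR p under 0.05, and their median log2 fold change was −0.009. Of 13 elongation factors and histone chaperones that work with Chd1, 1 rose, Supt4a of the DSIF factor, by 0.19 (SE 0.0635, edgeR adjusted p = 0.0426), and 12 did not pass. Among 14 other motors of the SNF2 class 4 fell, Atrx by 0.34 (SE 0.0724, edgeR adjusted p = 0.00383), Zranb3 by 0.32, Shprh by 0.22 and Ercc6 by 0.22, and 1 rose, Ercc6l by 0.26 (adjusted p = 0.0223), which was named after its value was seen. Per ERCC read 19 of 22 SWI/SNF subunits, 7 of 11 ISWI genes, 18 of 25 INO80, SRCAP and TIP60 subunits, 11 of 13 elongation genes and 7 of 14 other SNF2 motors rose and none fell, beside 56.4% of all tested genes called higher.

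Markers of other cell types moved with the guides as well, and their part in the CHD values was not tested. On the transcriptome scale 14.9% of all tested genes were called higher and 13.0% lower. Of 9 primitive endoderm markers 6 rose, 1 fell and 2 did not pass. The endoderm markers summed to 187 to 216 CPM with Mycn-gRNA2, 195 to 216 CPM with Mycn-gRNA3 and 134 to 189 CPM in NT. The ranges of this sum overlapped between Mycn-gRNA2 and NT. Gata6, which defines that lineage, had 2.28 CPM with Mycn-gRNA2, 1.96 CPM with Mycn-gRNA3 and 0.724 CPM in NT. Gata6 was thus near the floor and a small part of the endoderm sum, and it does not stand for the other markers. All 4 tested fibroblast markers of 8 rose, at sums over the 8 of 4.65 to 6.64 CPM with Mycn-gRNA2, 4.92 to 7.45 CPM with Mycn-gRNA3 and 1.54 to 2.15 CPM in NT, where Lum and Postn were at 0. The filter keeps a gene with enough reads in 4 libraries, so genes this low in NT may have been tested only through the guide libraries. Their count of rises can follow from that filter, and all these sums are near the floor. Of 7 tested neuron markers 1 rose and 1 fell, and the sum over 8 was 196 to 240 CPM with Mycn-gRNA2, 222 to 231 CPM with Mycn-gRNA3 and 209 to 240 CPM in NT. Of 7 pluripotent cell markers 4 fell, Nanog by 0.60 (SE 0.0656, edgeR adjusted p = 2.78e-05), Tfcp2l1 by 0.48, Klf4 by 0.36 and Esrrb by 0.35, and Pou5f1, Sox2 and Zfp42 did not pass.

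Likeness between members over the 12 libraries ran in both directions. Over the 12 libraries Chd1 was most like Chd7 among the members, with a Pearson r of 0.784 on log2 CPM and 0.705 after group means were removed. Chd6 and Chd9 had 0.792 and 0.771 by the same measures, and Chd3 and Chd4 0.782 and 0.743. Chd8 was most like Chd4, at 0.641 and 0.569, and Chd5 was most like Chd3, at 0.123 and 0.292. Chd2 was most like Chd3 over the 12 libraries, at 0.545, and that likeness was −0.02 after group means were removed. Taking the least like member of each, r over the 12 libraries was lowest for Chd3 and Chd7 at −0.67, then Chd2 and Chd7 at −0.57, Chd1 and Chd3 at −0.48, and Chd4 and Chd9 at −0.47. Among 9379 tested genes at a mean log2 CPM of 3 or more, those most like Chd1 over the 12 libraries were Mdm2 at 0.962, Map9 at 0.956, Cep83 at 0.932, Ppp4r2 at 0.927 and Zbtb1 at 0.926. Replicate 1 of Mycn-gRNA2, which stood apart, was the highest library in CPM for Chd1, Chd6, Chd7 and Chd9. It was the lowest for Chd3 and Chd4. These likenesses can rest on that library, and r without it was not computed. These correlations describe 12 libraries that share groups and depth, and carry no test.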

How the data were processed

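PolyA RNA of 12 libraries was analysed, 4 per group, with groups and replicate numbers taken from the sample titles. The deposited count table gives 24421 genes and 92 ERCC RNAs as whole-number counts of reads. The authors used, per the submitters' processing notes, Trim Galore 0.4.0, featureCounts of Subread 1.5.0, genome build mm10 and edgeR 3.32.1. No source used here gives the aligner, the annotation or whether counting was stranded, so reads of overlapping genes on either strand cannot be told apart. By GENCODE gene models of that build, Chd8 shares 724 exonic bases, 8.84% of its length, with the opposite-strand gene Gm26590. The other deposited table holds log2 values of 12042 genes, which equal log2(count + 0.5) minus a constant per library. Those constants lie within 0.0015 of TMM over the ERCC RNAs.

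The counts were fitted with edgeR 4.0.16 under R 4.3.3 (robust quasi-likelihood F test, 1 term per group, genes kept by filterByExpr) on all 12 libraries, with Benjamini-Hochberg adjustment over 14497 genes and calls at an adjusted p under 0.05. TMM factors gave levels relative to the transcriptome, and ERCC totals as library sizes gave levels per ERCC read. The 4 comparisons were both guides against NT (the mean of the guides' coefficients), either guide alone against NT, and the 2 guides against each other, as Mycn-gRNA3 over Mycn-gRNA2. The procedure was tested on simulated data in which no library stood apart, so that test does not cover such a library. Each edgeR SE is the size of the fitted log2 fold change divided by the square root of its F statistic, and intervals come from these. Counts of all replicate pairs differed by more than sampling noise.

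The alternatives were DESeq2 1.42.0, other size factors, no filter on low counts, a replicate block, fits of the compared groups alone, leaving out each library, replicates 1 and 2 or 3 and 4 alone, and limma 3.58.1 on the deposited log2 values. TMM over ERCC RNAs used 91 of them, all that were detected, a choice made after seeing the data. Same-numbered libraries of the 2 Mycn guides deviated together, with correlations of 0.371, 0.262, 0.498 and 0.211, each over 0.1. Replicate 4 of Mycn-gRNA2 was more like replicate 3 of Mycn-gRNA3, at 0.353, so the numbers pair these groups only in part. That pairing comes from the data and not from the labels. Members and lists were chosen with earlier results of these data known. Named genes were the 9 members, Mycn, up to 4 called genes per list with the lowest adjusted p, the 5 genes most correlated with Chd1 and each member's most correlated member.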

Additional observations from a re-analysis of the deposited data

Results flagged for a closer look

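Of 54 groups of 4 values examined, 9 members in 3 groups on 2 scales, 1 held a library far from the others. Chd5 in Mycn-gRNA3 replicate 1 stood at 1.591 reads per 1000 ERCC reads, where the other 3 Mycn-gRNA3 libraries lay between 1.12 and 1.18. The gap was 0.872 of the group's range, above Dixon's 95% critical value for 4 samples, which chance alone passes in about 5% of such groups. Without that library Chd5 was no longer called with both guides per ERCC read, at 0.35 (edgeR adjusted p = 0.0685).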

How the results depend on the processing

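Of 1386 values of single members under the alternatives, 1207 kept their direction and their side of the threshold, 84 lost a call, 27 gained one, and 68 changed sign, none of them called in either fit. The cause was not tested for any of these changes.

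The count of members called, 3 with both guides relative to the transcriptome, was 0 in replicates 1 and 2 alone. With Mycn-gRNA2 it was 1, and 2 with no filter on low counts, 2 with the replicate block, 0 with the compared groups alone, 0 in replicates 1 and 2 alone, 4 in replicates 3 and 4 alone, 3 with DESeq2, and 0 to 2 with a library left out. It was 0 without NT replicate 2 or 3 or Mycn-gRNA2 replicate 3, and 2 without Mycn-gRNA2 replicate 1 or 4. With Mycn-gRNA3 it was 2, and 4 with the compared groups alone, 0 in replicates 1 and 2 alone, 4 in replicates 3 and 4 alone, and 1 to 3 with a library left out, 1 without NT replicate 2, 3 or 4 or any Mycn-gRNA3 library. The genes called in all moved with these settings. With Mycn-gRNA2 they were 2485 in the main fit, 33 in replicates 1 and 2 alone and 4830 in replicates 3 and 4 alone. A library left out gave 1619 to 4114 genes. With Mycn-gRNA3 they were 3919 in the main fit, 226 in replicates 1 and 2 alone and 5955 in replicates 3 and 4 alone. The compared groups alone gave 6040 genes, and a library left out 2654 to 6012. Per ERCC read replicates 1 and 2 alone gave 0 for both guides, for Mycn-gRNA2 and for Mycn-gRNA3, and replicates 3 and 4 alone gave 6 for Mycn-gRNA2. Leaving out a library gave 2 to 7 for both guides, 2 to 6 for Mycn-gRNA2 and 3 to 7 for Mycn-gRNA3. NT replicate 1 gave the lowest of these for both guides and for Mycn-gRNA3, and without Mycn-gRNA2 replicate 2 that guide gave 6. Beside these members, replicates 1 and 2 alone called 1113 genes for both guides, 410 for Mycn-gRNA2 and 2792 for Mycn-gRNA3. Replicates 3 and 4 alone called 8200 genes for Mycn-gRNA2. With a library left out, 5599 to 10275 genes were called for both guides, 1866 to 7946 for Mycn-gRNA2 and 6838 to 9978 for Mycn-gRNA3. Mycn-gRNA3 against Mycn-gRNA2 gave 0 members on both scales under every alternative run, beside 0 to 10 genes relative to the transcriptome and 0 to 1988 genes per ERCC read.

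The replicate number as a block gave 3 members for both guides relative to the transcriptome, beside 4456 genes called. Per ERCC read it gave 5 members, beside 7525 genes, and Chd4 (edgeR adjusted p = 0.0598) and Chd6 (0.074) were lost. With Mycn-gRNA2 it called Chd3 (0.0293) relative to the transcriptome and lost Chd9 (0.088) per ERCC read. It changed no other call of a member. For the comparisons with NT the 8 same-numbered pairs had correlations of 0.033 to 0.370, and 4 of those 8 were over 0.1. Over all comparisons 14 of 24 best matches were with the own number, so the numbers pair these libraries only in part.

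Sign changes relative to the transcriptome with both guides were 0.072 for Chd6, 0.0081 for Chd8 and 0.089 for Chd9 in replicates 1 and 2 alone. With a library left out Chd5 ranged from −0.036 to 0.12 and Chd9 from −0.063 to 0.020. With Mycn-gRNA2, Chd6 was 7.22e-05 with DESeq2 size factors, 0.0068 with the compared groups alone and 0.19 in replicates 1 and 2 alone, where Chd8 was 0.032, and Chd9 was −0.063 in replicates 3 and 4 alone. Left-out ranges for that guide were −0.048 to 0.11 for Chd5, −0.14 to 0.079 for Chd6 and −0.029 to 0.14 for Chd9. With Mycn-gRNA3, Chd1 was −0.0042 in replicates 3 and 4 alone, and Chd5 ranged from −0.063 to 0.14 with a library left out. Between the guides Chd3 was −0.0058 with DESeq2 size factors and with DESeq2, and −0.11 in replicates 3 and 4 alone, where Chd5 was −0.024. Left-out ranges were −0.086 to 0.044 for Chd3, −0.068 to 0.0080 for Chd4 and −0.083 to 0.073 for Chd5.

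Per ERCC read Chd3 with Mycn-gRNA2 was −0.21 in replicates 1 and 2 alone and −0.12 to 0.11 with a library left out. Between the guides, replicates 3 and 4 alone gave −0.083 for Chd1, −0.091 for Chd2, −0.12 for Chd3, −0.016 for Chd4, −0.043 for Chd5, −0.033 for Chd7 and −0.019 for Chd8. Chd6 was 0.0060 and Chd9 0.012 with TMM over ERCC RNAs, 0.0085 and 0.000115 with the block, 0.10 and 0.067 in replicates 1 and 2 alone, and 0.041 and 0.027 with limma on the deposited log2 values. Left-out ranges were −0.10 to 0.076 for Chd1, −0.18 to 0.12 for Chd6, −0.067 to 0.15 for Chd7 and −0.13 to 0.12 for Chd9.

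Both guides against NT has no value for the compared groups alone, since all 12 libraries are already in that comparison. DESeq2 per ERCC read used the ERCC totals as size factors. With 2 libraries per group, the fits of replicates 1 and 2 or 3 and 4 alone rest on few degrees of freedom. Chd5 has the lowest depth of the members, and relative to the transcriptome its interval with both guides is the widest.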
